A study of Homo sapiens with 4 samples.

Results

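The let-7 guide strands are the 9 human mature miRNAs named let-7a, let-7b, let-7c, let-7d, let-7e, let-7f, let-7g, let-7i and miR-98 that are cut from the 5′ arm of their precursors. They were taken by name from a table of read counts for 2656 mature miRNAs, and all 9 were found there. The cells were cortical interneurons, inhibitory neurons of the cortex, differentiated in culture from the single human embryonic stem cell (hESC) line H1. Ethanol at around 50 to 100 mM was present for 7 days in the exposed cultures (2 libraries), and the unexposed cultures (2 libraries) spent 7 days without it. According to the study's methods, a final day without ethanol came before collection, and treatments were done in duplicate. Both groups therefore share the same line, differentiation and maturation medium, and no sorting of the cells is described.

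let-7 miRNAs are among the most conserved animal miRNAs and are known as timers of differentiation. In pluripotent cells the RNA-binding protein LIN28 blocks the maturation of their precursors, and the mature strands accumulate as cells differentiate, also along the neural lineage. They repress growth-promoting and stem-cell genes such as HMGA2, MYC, RAS genes and LIN28 itself. Targets are recognised mainly through the seed, bases 2 to 8 of the miRNA, so members with the same seed are thought to share most targets.

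All 9 members were matched by name to RefSeq sequences on GRCh38.p14. They are shown because the members differ at so few bases that the counts of each depend on which single bases were read. Capitals mark the seed, written 5′ to 3′:
hsa-let-7a-5p: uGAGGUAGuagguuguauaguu
hsa-let-7b-5p: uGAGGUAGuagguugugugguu
hsa-let-7c-5p: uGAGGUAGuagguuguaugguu
hsa-let-7d-5p: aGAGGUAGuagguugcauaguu
hsa-let-7e-5p: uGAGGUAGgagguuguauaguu
hsa-let-7f-5p: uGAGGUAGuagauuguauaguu
hsa-let-7g-5p: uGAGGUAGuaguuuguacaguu
hsa-let-7i-5p: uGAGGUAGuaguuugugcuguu
hsa-miR-98-5p: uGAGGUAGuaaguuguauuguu

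Each is 22 bases long and each has the seed GAGGUAG, so the members form a single seed group. Counted from the 5′ end with the base of let-7a-5p first, let-7c-5p differed from let-7a-5p only by A19G, let-7e-5p only by U9G and let-7f-5p only by G12A. let-7b-5p differed by A17G and A19G, let-7d-5p by U1A and U16C, and miR-98-5p by G11A and A19U. let-7g-5p carried G12U and U18C, and let-7i-5p carried G12U, A17G, U18C and A19U. let-7b-5p and let-7c-5p also differed from each other at 1 base. How the counting treated reads that fit several members is not given in the sources used here, so the division of counts between members 1 base apart is less certain than their sum.

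The 9 mature strands come from 12 precursors on 8 chromosomes, so let-7a-5p (3 precursors) and let-7f-5p (2 precursors) cannot be assigned to a locus from the guide strand alone. Positions are those of the RefSeq hairpins on GRCh38.p14, and GENCODE 29 placed each precursor at the same coordinates. On chromosome 9, MIRLET7A1 (94175957 to 94176036), MIRLET7F1 (94176347 to 94176433) and MIRLET7D (94178834 to 94178920) lie together within introns of AL158152.2, which makes a long noncoding RNA, and MIRLET7D also lies opposite an intron of LINC02603. On chromosome 22, MIRLET7A3 (46112749 to 46112822) and MIRLET7B (46113686 to 46113768) overlap exons of MIRLET7BHG. On the X chromosome, MIR98 (53556223 to 53556341) and MIRLET7F2 (53557192 to 53557274) lie within introns of the ubiquitin ligase gene HUWE1.

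The other precursors lie apart from these clusters. MIRLET7A2 on chromosome 11 (122146522 to 122146593) is intronic in MIR100HG, MIRLET7C on chromosome 21 (16539828 to 16539911) in MIR99AHG, and MIRLET7E on chromosome 19 (51692786 to 51692864) in SPACA6. Each of these 3 is transcribed near genes of the miR-99/100 and miR-125 families. MIRLET7G on chromosome 3 (52268278 to 52268361) lies in an intron of WDR82, and MIRLET7I on chromosome 12 (62603686 to 62603769) within an intron of AC048341.1, another long noncoding RNA. On the opposite strand, MIRLET7E overlaps an exon of SPACA6P-AS and MIRLET7I an exon of LINC01465.

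Library totals were 22223060 and 24858230 counts in the exposed cultures and 13941795 and 12100425 in the unexposed cultures, so exposure and depth cannot be told apart. Levels are given as CPM, a miRNA's counts relative to the library total, after TMM scaling, in which each library's total was multiplied by a factor (1.13 and 0.979 in exposed, 0.846 and 1.06 in unexposed replicates 1 and 2) that brings the bulk of the miRNAs to a common level. The neural marker miRNAs were abundant, with miR-9-5p between 157333 and 253991 CPM and miR-124-3p between 2190 and 5405 CPM, although these mark neural cells in general and not interneurons. Of the 5 pluripotency markers, miR-367-3p had 0 counts in every library (the limit set by 3 counts was between 0.119 and 0.254 CPM), and the 5 together summed to between 1.59 and 3.26 CPM. The sums were 75.7 to 116 CPM for 3 oligodendroglial markers, 78.8 to 110 CPM for 4 mesenchymal markers, 81.0 to 163 CPM for 5 epithelial markers and 0.0777 to 0.698 CPM for 3 blood markers, of which miR-223-3p was at 0 in every library. Of these lists, 1 of 5 neural markers was higher in exposed cells (miR-124-3p, log2 fold-change 0.77, P of 0.032 in edgeR) and 1 of 5 epithelial markers was lower (miR-200a-3p, -0.70, P of 0.049 in edgeR, between 51 and 68 counts a library), where 4.52% of all tested miRNAs had P under 0.05. The neural markers were of mixed sign, with log2 fold-changes of -0.64 for miR-7-5p, -0.23 for miR-9-5p, 0.31 for miR-128-3p and 0.19 for miR-132-3p. In bulk RNA, fewer cells of a type and less of an RNA per cell cannot be told apart.

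The let-7 guide strands together made up a large part of all miRNA counts in these cells. Their share was 15.2% (95% Wilson interval 15.15 to 15.18%) in exposed replicate 1 and 18.3% (18.26 to 18.29%) in exposed replicate 2. It was 19.0% (18.95 to 18.99%) in unexposed replicate 1 and 16.1% (16.09 to 16.13%) in unexposed replicate 2. These intervals cover only the counting of reads within each library. They take reads as independent, although no molecular identifiers that would mark copies of a molecule are described. The spread between cultures was far wider. Exposed cells averaged 16.7% ± 2.20 (SD, n = 2) and unexposed cells 17.5% ± 2.02 (SD, n = 2), a difference of -0.82 percentage points that was smaller than either SD. The difference was -2.77 points after TMM scaling and -3.66 points without the 3 most abundant other miRNAs, and it turned to 0.74 points without exposed replicate 1 and 0.61 points without unexposed replicate 1. Without exposed replicate 2 it was -2.38 points, and without unexposed replicate 2 it was -2.25 points.

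After TMM scaling the summed level in exposed replicates 1 and 2 was 133622 and 186659 CPM. In unexposed replicates 1 and 2 it was 224208 and 151528 CPM. The groups overlapped, with the lowest sum in an exposed and the highest in an unexposed culture. The 5 neural markers summed to 294245 and 380514 CPM in exposed and 474553 and 355607 CPM in unexposed replicates 1 and 2, also lowest in exposed replicate 1 and highest in unexposed replicate 1. That sum was carried by miR-9-5p and miR-7-5p, while miR-124-3p and miR-132-3p were highest in exposed replicate 1, and miR-128-3p and miR-132-3p lowest in unexposed replicate 1. The 5 epithelial markers, at 81.0 and 112 CPM in exposed and 163 and 101 CPM in unexposed cells, were lowest and highest in the same libraries as let-7. The mesenchymal sum was lowest in exposed replicate 2 (78.8 CPM) and highest in unexposed replicate 2 (110 CPM), a different order. The oligodendroglial sum was lowest in exposed replicate 1 (75.7 CPM), as the let-7 sum was. It was close to that in unexposed replicate 1 (76.0 CPM) and highest in unexposed replicate 2 (116 CPM), unlike let-7. The part of this shared spread in the let-7 values was not tested.

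let-7f, let-7g, let-7a and let-7i carried most of the family's reads. let-7f-5p was at 33883 and 51515 CPM in exposed replicates 1 and 2 and at 60897 and 42456 CPM in unexposed replicates 1 and 2. let-7g-5p was at 30881 and 47316 CPM in exposed and at 63486 and 38558 CPM in unexposed cells. let-7a-5p was at 25235 and 32775 CPM in exposed and at 35416 and 24517 CPM in unexposed cells. For each of these the higher exposed culture lay above the lower unexposed culture, so the groups overlapped. let-7i-5p was at 16718 and 24136 CPM in exposed and at 32287 and 21594 CPM in unexposed cells, again with overlap. Together these 4 made up 79.9% and 83.4% of the let-7 counts in exposed and 85.7% and 83.9% in unexposed cultures.

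let-7c-5p, which shares a primary transcript region with miR-99a, was at 14088 and 17667 CPM in exposed and at 18954 and 13170 CPM in unexposed cells. let-7e-5p, which lies beside miR-99b and miR-125a, was at 6999 and 6624 CPM in exposed and at 5937 and 5897 CPM in unexposed cells. let-7e-5p was the member with the least spread between unexposed replicates, and the only member whose exposed and unexposed libraries did not overlap. The remaining 3 were lower. let-7b-5p was at 3237 and 3528 CPM in exposed and at 3900 and 2903 CPM in unexposed cells. let-7d-5p was at 1517 and 1568 CPM in exposed and at 1573 and 1286 CPM in unexposed cells. miR-98-5p was at 1064 and 1531 CPM in exposed and at 1758 and 1147 CPM in unexposed cells. In all 3 the unexposed cultures spanned the exposed cultures or overlapped them.

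**Figure D1:**
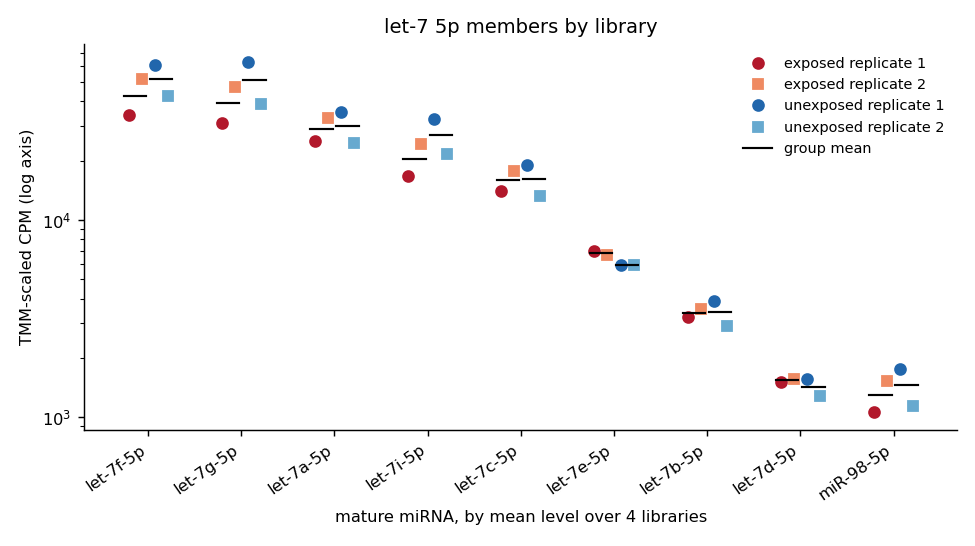
TMM-scaled CPM on a log axis for each of the 9 let-7 5p miRNAs, ordered by mean level, with 1 point per library and a line at each group's mean. Exposed replicate 1 sits lowest or near lowest and unexposed replicate 1 highest for most members, and only let-7e-5p (6999 and 6624 against 5937 and 5897 CPM) has groups that do not overlap.

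By mean level over the 4 libraries the order was let-7f, let-7g, let-7a, let-7i, let-7c, let-7e, let-7b, let-7d and miR-98. The members have the same length, so the order is one of read counts per molecule type, although ligation-based libraries capture different end sequences unequally. let-7f-5p was above let-7g-5p in 3 of 4 libraries, with a ratio between 0.959 and 1.10, so these neighbours did not differ beyond their spread. let-7d-5p was above miR-98-5p in 3 of 4 libraries, with a ratio between 0.895 and 1.43, and these were also not separated. Every other pair of neighbours kept its order in 4 of 4 libraries, by at least 1.10-fold for let-7a over let-7i and at least 2.13-fold for let-7b over let-7d. The range over libraries overlapped between let-7f and let-7g, let-7g and let-7a, let-7a and let-7i, let-7i and let-7c, and let-7d and miR-98. It did not overlap between let-7c, let-7e, let-7b and let-7d.

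No let-7 guide strand changed with ethanol exposure at the thresholds the study used for these cells. In edgeR's quasi-likelihood test, 0 of the 9 members had an unadjusted P under 0.05, where 39 of 863 tested miRNAs (4.52%) did, and 0 of 9 were past a fold-change of 2 and P of 0.05, where 2.32% of the tested miRNAs were. The counts of members were also 0 with limma-voom and with DESeq2. The members' log2 fold-changes (exposed over unexposed) had a median of -0.047, beside -0.010 over all tested miRNAs, and 7 of 9 were below 0, where 51.2% of tested miRNAs were. The groups did not overlap for 1 of 9 members, against 33.4% of tested miRNAs. With 2 cultures per group a two-sided exact permutation test cannot give a p under 0.333.

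The lowest fold-changes were those of let-7i-5p, let-7g-5p and let-7f-5p. The log2 fold-change of let-7i-5p was -0.40 (standard error 0.31, 95% interval -1.12 to 0.32), with P of 0.236 and an adjusted p of 0.922 in edgeR. let-7g-5p had -0.38 (standard error 0.35, interval -1.19 to 0.42), with P of 0.301 and an adjusted p of 0.927 in edgeR. For let-7f-5p the log2 fold-change was -0.28 (standard error 0.32, interval -1.02 to 0.47), and for miR-98-5p it was -0.16 (standard error 0.29, interval -0.83 to 0.50). The intervals of let-7f-5p, let-7g-5p and let-7i-5p reached past a halving of the level at their lower end, so a decrease of that size was not separated from no change.

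For let-7a-5p the log2 fold-change was nearer to 0, at -0.047 (standard error 0.29, interval -0.73 to 0.63). let-7c-5p and let-7b-5p were close to it, at -0.017 and -0.0080, with intervals of -0.67 to 0.63 and -0.56 to 0.55. let-7d-5p and let-7e-5p were the 2 members above 0. let-7d-5p had 0.11 (standard error 0.22, interval -0.39 to 0.61), and let-7e-5p had 0.20 (standard error 0.22, interval -0.31 to 0.71), with P of 0.383 and an adjusted p of 0.940 in edgeR. The exact permutation p was 0.333 for let-7e-5p, 0.667 for let-7f-5p, let-7g-5p, let-7i-5p and miR-98-5p, and 1 for the other members. These directions depend on the scaling: when libraries were scaled by their totals alone, the median over all tested miRNAs moved to 0.14 and that of the members to 0.12, with 4 of 9 members below 0. With upper quartile scaling these medians were -0.12 and -0.15, with 7 of 9 members below 0. Under each of these scalings the members' median was a little below that of all tested miRNAs. With single libraries left out this order changed. The medians of members and of all tested miRNAs were 0.076 and -0.032 without exposed replicate 1, and 0.20 and 0.037 without unexposed replicate 1. They were -0.24 and 0.015 without exposed replicate 2, and -0.32 and 0.035 without unexposed replicate 2.

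**Figure D2:**
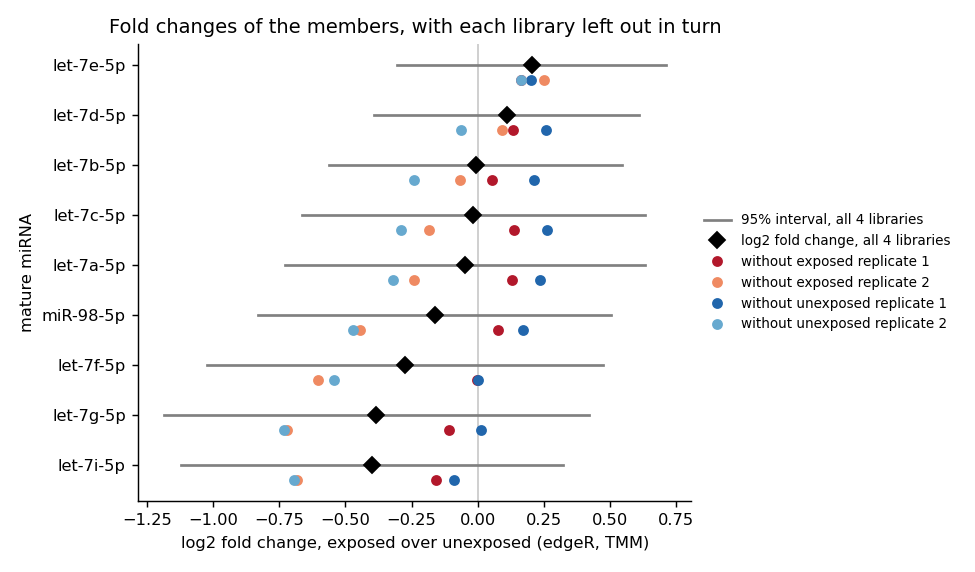
log2 fold-change of each let-7 5p miRNA (exposed over unexposed, edgeR with TMM) as a diamond with its 95% interval, and the value with each library left out as coloured points beneath it. Every interval includes 0, and leaving out either replicate 2 moved let-7f, let-7g and let-7i below -0.5, while leaving out either replicate 1 moved them to between -0.16 and 0.011.

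Most members differed more between cultures of the same group than between the groups. let-7g-5p was higher by 0.62 (log2) in exposed replicate 2 than in exposed replicate 1, and by 0.72 in unexposed replicate 1 than in unexposed replicate 2, next to a group difference of -0.38. let-7a-5p differed by 0.38 between the exposed and 0.53 between the unexposed cultures, next to -0.047. let-7b-5p, with 0.12 and 0.43, and let-7d-5p, with 0.047 and 0.29, varied less. In 8 of 9 members at least one of these replicate differences was larger than the group difference, and the same 8 were higher in exposed replicate 2 and in unexposed replicate 1. The exception was let-7e-5p, with differences of -0.080 and 0.0097 between replicates and 0.20 between groups. The same count was not made over all tested miRNAs, so the 8 of 9 is not shown to be particular to let-7. A difference between single cultures also varies more than a difference between group means. Over all tested miRNAs the SD of the log2 replicate difference was 0.43 in exposed and 0.66 in unexposed cells. Many of these miRNAs had far fewer counts than the let-7 guide strands, so counting error adds to this SD. It is therefore not a like background for the members.

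**Figure D3:**
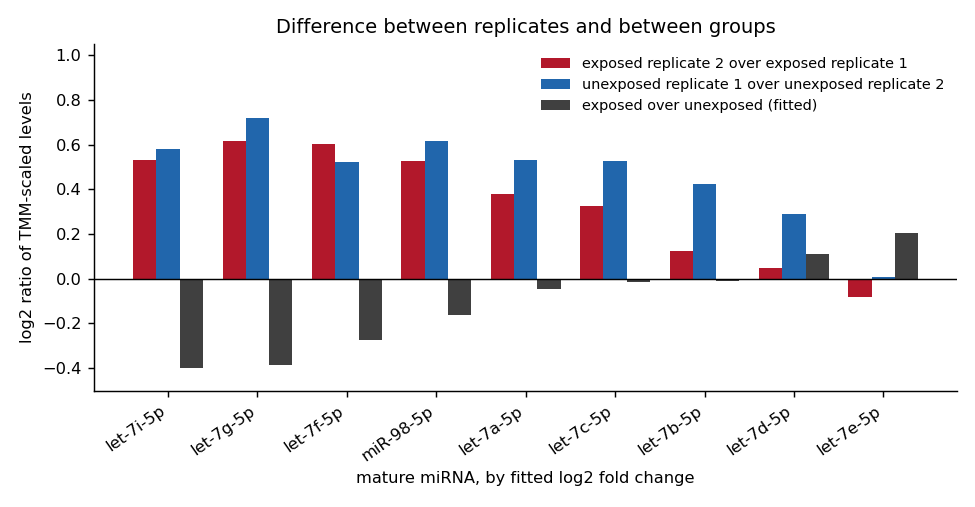
log2 ratios of TMM-scaled levels for each let-7 5p miRNA: the replicate difference in exposed cells (red), the replicate difference in unexposed cells (blue) and the fitted group difference (grey), with the direction of the replicate ratios chosen after the values were seen. The replicate bars reach 0.62 and 0.72 for let-7g-5p, and only in let-7e-5p is the grey bar the longest.

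Because of this spread, single libraries decided how far below 0 the lowest members lay. Without unexposed replicate 2, let-7g-5p had a log2 fold-change of -0.73 with P of 0.0095 in edgeR, and let-7i-5p had -0.69 with P of 0.014, so that 2 of 9 members had P under 0.05, where 109 of 954 tested miRNAs (11.4%) did in the same fit. Their adjusted p was then 0.189 and 0.208 in edgeR, and the lone unexposed library was assumed to vary like the exposed ones. Without unexposed replicate 1, let-7g-5p was at 0.011 and let-7i-5p at -0.088. let-7e-5p stayed between 0.16 and 0.25 with each library left out in turn.

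The make-up of the family, which no scaling between libraries can change, was compared next. let-7i-5p made up 12.5% and 12.9% of the let-7 counts in exposed and 14.4% and 14.3% in unexposed cultures. let-7g-5p made up 23.1% and 25.3% in exposed and 28.3% and 25.4% in unexposed cultures, groups that were only just apart. Both had a smaller part of the family in each exposed than in each unexposed library. let-7a-5p, in contrast, made up 18.9% and 17.6% in exposed and 15.8% and 16.2% in unexposed cultures. let-7c-5p made up 10.5% and 9.46% in exposed and 8.45% and 8.69% in unexposed cultures. As a ratio of counts, let-7a-5p was 1.51 and 1.36 times let-7i-5p in exposed and 1.10 and 1.14 times in unexposed cultures.

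The share of miR-98-5p was 0.796% and 0.820% in exposed and 0.784% and 0.757% in unexposed cultures, also without overlap. The shares of let-7b-5p, let-7d-5p, let-7e-5p and let-7f-5p overlapped between the groups. let-7f-5p made up 25.4% and 27.6% in exposed and 27.2% and 28.0% in unexposed cultures, and let-7e-5p made up 5.24% and 3.55% in exposed and 2.65% and 3.89% in unexposed cultures. The groups thus did not overlap for 5 of 9 members. Of all tested miRNAs, 22.0% had non-overlapping groups when their counts were divided by the let-7 total in the same way. Spread that the members share cancels in such a division but need not cancel in other miRNAs. The 22.0% is therefore not a like background for the 5 of 9, and no conclusion is drawn from setting them side by side. With let-7a and 2 of the members 1 base away from it, let-7c and let-7f, counted as 1 miRNA, their share was 2.55 percentage points higher in exposed cells. The 9 shares sum to the whole and are not independent, and no p was computed for them.

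**Figure D4:**
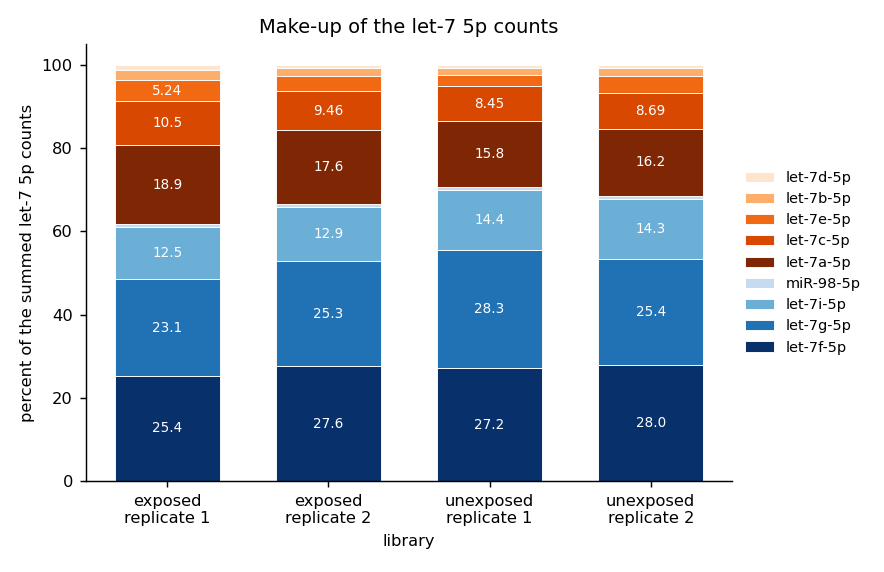
Stacked bars of each let-7 5p miRNA's percent of the summed let-7 5p counts in each library, with let-7f, let-7g, let-7i and miR-98 in blue and let-7a to let-7e in orange. In exposed replicates 1 and 2 the blue part takes 61.8% and 66.7%, less than the 70.7% and 68.5% of unexposed replicates 1 and 2. The colours follow a grouping chosen after the fold-changes were seen, so this difference largely follows from that choice.

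A sequence feature followed the order of the fold-changes, and it was noticed only after the values were seen. In the sequences printed above, let-7a, let-7b, let-7c, let-7d and let-7e have G at both positions 11 and 12, and these 5 had log2 fold-changes between -0.047 and 0.20. let-7f, let-7g, let-7i and miR-98, which carry G12A, G12U, G12U and G11A, had the 4 lowest, between -0.40 and -0.16. Without exposed replicate 1 this separation was lost, with miR-98-5p at 0.076 above let-7b-5p at 0.053. The 4 members without both G together made up 61.8% and 66.7% of the let-7 counts in exposed and 70.7% and 68.5% in unexposed cultures, or 64.2% ± 3.48 (SD, n = 2) against 69.6% ± 1.55 (SD, n = 2). Their summed level was 82546 and 124498 CPM in exposed and 158429 and 103755 CPM in unexposed cells, which overlap. The summed level of the 5 with both G was 51076 and 62161 CPM in exposed and 65779 and 47772 CPM in unexposed cells. miR-98-5p did not move with its group in share, since its part of the family was the larger in the exposed cells. The content of G or C did not sort the members in this way: let-7f and miR-98 have 7 such bases, let-7a and let-7g 8, let-7c, let-7d, let-7e and let-7i 9, and let-7b 10. The grouping is a description with no test, and the difference in depth between the groups stands beside it. Because it was drawn from these fold-changes, the lower summed share of the 4 members in exposed cells largely follows from that choice. That share is no separate support for the grouping.

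Other miRNAs with the let-7 seed were almost absent. In the RefSeq table miR-4458 and miR-4500 also have the seed GAGGUAG, and they had 2 or fewer counts in each library. miR-202-3p, whose seed region is close to that of let-7, had 0 counts in every library, which allows up to 0.254 CPM in the shallowest by scaled total. The seed group in these cells was therefore made up of the 9 members to within a few counts.

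Passenger strands, the other arm of each hairpin, are usually degraded after the guide is loaded into Argonaute. Of 11 let-7 passenger strands 10 passed the filter on low counts. Of these, 0 had P under 0.05 in edgeR, where 4.52% of all tested miRNAs did. A log2 fold-change above 0 was found in 8 of the 10, and in 421 of the 863 tested miRNAs. The median was 0.20 for the passenger strands and -0.010 for all tested miRNAs. The rarest that passed, let-7a-2-3p, had only 8 to 20 counts a library. They were far rarer than the guides. let-7g-3p had 10 and 4 counts in exposed and 4 and 0 counts in unexposed libraries, next to between 496172 and 1151841 counts of let-7g-5p. The exception was let-7d-3p, at 34.0% and 34.0% of the let-7d-5p counts in exposed and 18.5% and 39.6% in unexposed cultures. miR-98-3p was at 0.477% and 0.258% of miR-98-5p in exposed and 0.159% and 0.230% in unexposed cultures. It was the only passenger strand whose groups did not overlap in this percentage, for which no share over all tested miRNAs was computed. The log2 fold-change of miR-98-3p was 0.73 (standard error 0.32), with P of 0.0504 and an adjusted p of 0.922 in edgeR. In its own fit the study counts miR-98-3p among the miRNAs with P under 0.05 in these cells.

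Passenger strands also bear on which precursors the shared guides came from. let-7a-3p, from MIRLET7A1 and MIRLET7A3, had 1801, 2043, 1104 and 743 counts in exposed replicates 1 and 2 and unexposed replicates 1 and 2. let-7a-2-3p, from MIRLET7A2, had 20, 19, 8 and 8. let-7f-1-3p had 334, 256, 111 and 137 counts, and let-7f-2-3p had 89, 90, 57 and 27. In every library the chromosome 9 and 22 arms thus outnumbered that of chromosome 11, and the chromosome 9 arm of let-7f that of the X chromosome, although passenger strands need not be equally stable.

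The miRNAs next to let-7 precursors are miR-99a-5p, miR-100-5p, miR-99b-5p, miR-125a-5p and miR-125b-5p, and as a sum they were ordered differently from let-7 across the libraries. Their summed level was 134513 and 117425 CPM in exposed and 129654 and 107302 CPM in unexposed replicates 1 and 2, so that the exposed culture with the lowest let-7 sum had the highest sum here. None had P under 0.05 in edgeR (0 of 5), where 4.52% of all tested miRNAs did, so 0 of 5 does not set them apart. Their log2 fold-changes ran from -0.22 for miR-99b-5p to 0.27 for miR-125b-5p. miR-99a-5p, from the same host gene as let-7c, was at 51235 and 36931 CPM in exposed and at 38449 and 35825 CPM in unexposed cells. Its higher exposed culture was replicate 1, and that of let-7c-5p was replicate 2. miR-125a-5p, in contrast, was at 14120 and 17605 CPM in exposed and at 21864 and 12553 CPM in unexposed cells, the same order of libraries as let-7a-5p and let-7c-5p.

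Embryonic stem cell miRNAs of the miR-302, miR-372 and miR-373 families, which act against let-7 in pluripotent cells, were near the limit of detection. Of 6 listed, 2 passed the filter, and the 6 summed to between 2.42 and 3.89 CPM in each library, next to at least 133622 CPM of let-7. Counts of miR-302b-3p were 31 in both exposed cultures, and 21 and 26 in the shallower libraries without ethanol. After scaling for depth these were 1.23 and 1.27 CPM in exposed and 1.78 and 2.02 CPM in unexposed cells. The fold-change was -0.60 on the log2 scale (standard error 0.33, P of 0.104 in edgeR), and its direction rests on that scaling.

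Outside the family, the levels most like the summed let-7 level over the 4 libraries were found among miRNAs with a mean of at least 100 CPM. Likeness was the root mean square difference in log2 CPM after each miRNA was centred on its own mean. The 5 nearest of the 154 miRNAs compared were miR-93-5p (0.045), miR-135a-5p (0.055), miR-17-5p (0.058), miR-185-5p (0.078) and miR-335-5p (0.085). Some near matches follow from a search of that size over 4 values. miR-93-5p, for example, was at 1623 and 2244 CPM in exposed and at 2894 and 1937 CPM in unexposed cells, lowest in exposed replicate 1 and highest in unexposed replicate 1 as the let-7 sum was. Within the family the distance ran from 0.042 for miR-98-5p and 0.055 for let-7f-5p to 0.351 for let-7e-5p, so miR-93-5p was nearer to the let-7 sum than 8 of the 9 members. With 4 libraries that share depth and scaling, this describes these libraries only.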

How the data were processed

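Small RNA libraries were made by the authors with a NEBNext kit, which ligates adapters with unequal efficiency for different end sequences. CAP-miRseq turned the reads into counts for each mature miRNA, which the authors deposited as raw counts. The pipeline version is not given in the sources used here. The submitters' processing notes name hg19, and the counts carry no coordinates, so positions and sequences were taken by name from RefSeq (GRCh38.p14) and GENCODE 29 and nothing was converted between builds. Groups and replicate numbers came from the sample labels, which do not say that the cultures were independent, so P values measure the spread between these libraries.

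The 4 libraries were fitted together with edgeR 4.0.16 (R 4.3.3): filterByExpr (minimum count 10, minimum total 15; 863 of 2656 miRNAs kept, all 9 let-7 guide strands among them), TMM, the quasi-likelihood test without covariates, and Benjamini-Hochberg adjustment over all 863. Standard errors were derived from the F statistic. limma-voom 3.58.1, DESeq2 1.42.0, other scalings and filters, the replicate block and each library left out were alternatives. The code was tested on simulated data. The members, lists and tests were chosen with earlier results of these data known. Named miRNAs are the members, their passenger strands, cluster partners, other miRNAs of the seed, stem cell miRNAs, marker lists and the 5 most alike in level.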

Additional observations from a re-analysis of the deposited data

How the results depend on the processing

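Under the 14 alternative fits, let-7e-5p stayed above 0 and let-7f-5p and let-7i-5p below 0, and the lowest adjusted p of any member was 0.189. Members near 0 changed sign. let-7b-5p was 0.0057 with limma-voom, 0.16 with library size only, 0.010 with no filter on low counts, 0.018 when all libraries had to reach 10 counts and 0.0063 with the replicate block, also when crossed. let-7a-5p was 0.12 with library size only, and let-7c-5p was 0.15 with library size only, 0.0025 with no filter and 0.010 when all libraries had to reach 10 counts. With 1 library left out in turn the ranges were -0.32 to 0.23 for let-7a-5p, -0.24 to 0.21 for let-7b-5p, -0.29 to 0.26 for let-7c-5p, -0.065 to 0.26 for let-7d-5p, -0.73 to 0.011 for let-7g-5p and -0.47 to 0.17 for miR-98-5p, and the count of members with P under 0.05 was 0 to 2.

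The count of all tested miRNAs with P under 0.05 was 94 with no filter, 25 with the replicate block, 59 with the crossed replicate block and 12 to 109 with 1 library left out, next to 39. Across miRNAs the correlation of replicate differences was -0.195. This value cannot decide whether cultures with the same number were handled together, since the spread between single cultures also enters it. The sources used here do not say how the cultures were paired. The crossed block was not planned, and its choice followed from that correlation. The difference in the let-7 share of counts was -3.66 percentage points without the 3 most abundant other miRNAs, -2.77 with TMM scaling, and -2.38 to 0.74 with 1 library left out. The difference in the share of the members without both G was -7.79 to -2.87 with 1 library left out. That group was chosen from the fold-changes of these same libraries, so the steady sign is no separate result. The separation of the fold-changes themselves was lost without exposed replicate 1. The causes were not tested. Every member had at least 14766 counts in each library, so depth limits the rare passenger strands and seed relatives, and the spread between 2 cultures per group limits the comparison of the members.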
